A study of Mus musculus with 8 samples.

Results

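The Pax family comprises 9 transcription factor genes, *Pax1* to *Pax9*, which share the paired DNA-binding domain. Its members were taken as all array probes whose RefSeq accession, without its version, belonged to 1 of these genes, which gave 14 probes (33 spots) for 9 of the 20660 genes that could be named on the array. The samples were 8 whole mouse embryos of embryonic day 8.5 (E8.5), and RNA of each was hybridised to 1 single-colour Agilent array. In 4 embryos the father was homozygous (HOM father) for the hypomorphic *Eed* allele Eedl7Rn5-1989SB, and in 4 the father was heterozygous (HET father). All fathers were on a C57bl6/129 background, all mothers were wild-type mice of that background, and by the study's account all 8 embryos carried 1 copy of the hypomorphic allele. Each father group held 2 female and 2 male embryos. By the study's methods the sires of each genotype were fewer than the embryos, and p-values therefore measure a spread between embryos some of which have a common father. The study also states that the HOM and HET sires were brothers in littermate pairs. The main fit does not use this pairing, because the sire of each embryo is not in the labels used. The 4 arrays of each father group were on a slide of their own, and slide and father cannot be told apart.

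Pax proteins set up and pattern organ rudiments during development, and not every site named here need be present at the stage examined. *Pax1* and *Pax9* mark the sclerotome and pharyngeal pouches, *Pax2*, *Pax5* and *Pax8* act at the midbrain-hindbrain boundary, with *Pax2* and *Pax8* also in the intermediate mesoderm and otic placode, *Pax3* and *Pax7* act in the dorsal neural tube, neural crest and dermomyotome, and *Pax4* and *Pax6* act in the pancreas, with *Pax6* also in the eye and forebrain. Genes of this kind are well-known targets of the Polycomb complexes, and *Eed* encodes a core subunit of Polycomb Repressive Complex 2. The comparison by father therefore asks whether a paternal deficit of EED was accompanied by a different level of these developmental regulators in the offspring.

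*Pax1*, *Pax3*, *Pax6*, *Pax7* and *Pax8* had their lowest signal in the embryo HOM father replicate 2 and *Pax2* its highest, as described below. Of these, *Pax3* had no entry in the promoter set used. For the other members, the sequences before the transcription start are shown because CpG-rich promoters are the usual sites of Polycomb binding. They are the 250 bases upstream of the start in RefSeq (GRCm38.p6), with each CG dinucleotide in capitals. *Pax1* is at chr2:147364744-147364993 (forward strand), *Pax6* (the first of 2 starts) at chr2:105668646-105668895 (forward strand), *Pax7* at chr4:139832969-139833218 (reverse strand) and *Pax8* at chr2:24475600-24475849 (reverse strand). *Pax2*, of whose 3 starts the one with the most CG is shown, is at chr19:44756656-44756905 (forward strand).
Pax1: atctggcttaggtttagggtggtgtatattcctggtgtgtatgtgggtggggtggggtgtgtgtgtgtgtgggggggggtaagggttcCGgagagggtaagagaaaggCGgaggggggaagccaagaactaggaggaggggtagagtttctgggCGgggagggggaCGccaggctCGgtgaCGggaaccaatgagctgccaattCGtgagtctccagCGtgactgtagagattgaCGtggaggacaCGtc
Pax6: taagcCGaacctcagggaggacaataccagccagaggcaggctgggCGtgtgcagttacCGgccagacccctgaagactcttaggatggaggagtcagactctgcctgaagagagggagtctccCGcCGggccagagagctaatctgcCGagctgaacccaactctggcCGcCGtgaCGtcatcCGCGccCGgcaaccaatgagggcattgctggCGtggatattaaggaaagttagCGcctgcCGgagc
Pax7: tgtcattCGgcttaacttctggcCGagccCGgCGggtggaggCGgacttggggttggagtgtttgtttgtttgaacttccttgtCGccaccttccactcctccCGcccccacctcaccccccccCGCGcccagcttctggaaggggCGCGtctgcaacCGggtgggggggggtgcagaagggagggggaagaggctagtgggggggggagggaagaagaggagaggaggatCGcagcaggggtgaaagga
Pax8: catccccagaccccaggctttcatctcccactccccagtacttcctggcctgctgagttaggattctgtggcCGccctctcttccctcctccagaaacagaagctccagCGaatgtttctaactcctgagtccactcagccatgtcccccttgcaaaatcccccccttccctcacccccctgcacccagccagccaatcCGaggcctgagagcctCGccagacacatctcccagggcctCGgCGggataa
Pax2: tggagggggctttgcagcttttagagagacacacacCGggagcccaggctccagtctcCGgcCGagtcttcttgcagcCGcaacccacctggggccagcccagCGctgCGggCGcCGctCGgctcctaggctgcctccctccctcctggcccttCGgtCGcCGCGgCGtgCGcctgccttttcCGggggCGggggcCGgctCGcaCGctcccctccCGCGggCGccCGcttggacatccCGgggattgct

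The 10 promoter entries of 7 members (*Pax1*, *Pax2*, *Pax5*, *Pax6*, *Pax7*, *Pax8* and *Pax9*) held between 5 and 25 CG dinucleotides in 250 bases, while the median of 32851 mouse promoters was 6. *Pax1* held 10, a number reached by 37.8% of all promoters. *Pax6* held 15 at both starts (27.3% of all promoters), *Pax7* 13 (31.5%) and *Pax8* 6 (50.4%), and the 3 starts of *Pax2* held 5, 20 and 25. The letters TATAAA, searched on both strands, were in none of the 10 Pax windows and in 12.4% of all promoters. These are descriptions of letters in a window and were not related to the signals by any test.

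Of the 9 members, 7 were detected at the level required for testing, with 8 probes (*Pax1*, *Pax2*, *Pax3* with 2 probes, *Pax6*, *Pax7*, *Pax8* and *Pax9*). Signals are given as log2 of the processed intensity minus the 75th percentile of the array, so that 0 is the intensity below which 75% of the spots of that array lay. Testing required a scanner flag of well above background, and a signal not under the array's 20th percentile, on 4 or more arrays, and 29718 of 55681 probes (53.4%) passed. The tested Pax probes were well above background on all 8 arrays, except that of *Pax2*, which was so on 7. *Pax4*, with 1 probe, and *Pax5*, with 2, were well above background on 0 of 8 arrays, with normalised log2 signals of between -7.86 and -5.27. A signal near the array's floor gives an upper limit only. The other *Pax2* probe, A_55_P2148518, and the other *Pax6* probe, A_52_P469306, were likewise well above background on 0 arrays, and the other *Pax9* probe, A_55_P1955756, on 1. With signal over local background of at least 2 on 4 or more arrays in place of the flag, 11 of the 14 Pax probes instead of 8 counted as detected.

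**Figure D1:**
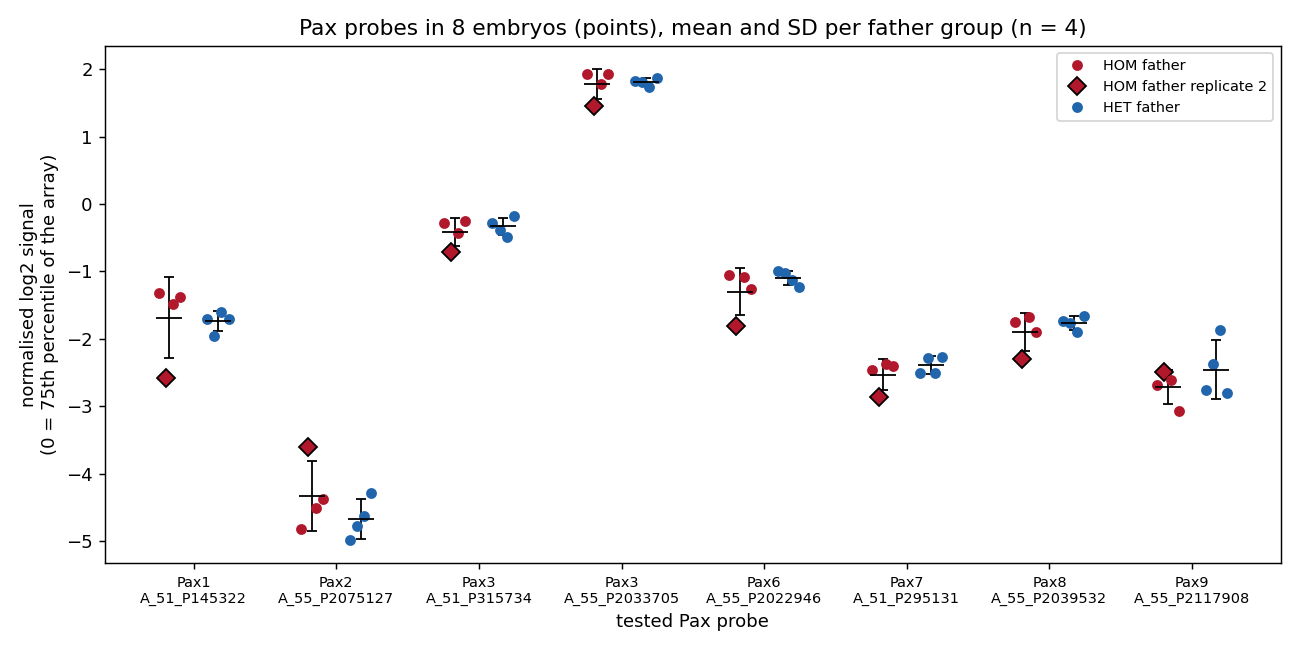
Normalised log2 signal of each of the 8 tested Pax probes (vertical axis) in the 4 embryos of HOM fathers (red) and the 4 of HET fathers (blue), with black lines for the group mean and SD. The diamond is HOM father replicate 2, which was the lowest of the 8 embryos for 6 probes and the highest for *Pax2*.

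No tested Pax probe was past a threshold for a difference between embryos of HOM and HET fathers. By the limits of the study's methods (limma, adjusted p below 0.01 and at least 2-fold) 0 of 8 Pax probes were called, where 1.27% of all tested probes were. At an adjusted p below 0.05 alone, 0 of 8 were higher and 0 of 8 lower in embryos of HOM fathers, compared with 12.3% and 8.69% of all tested probes, and 0 of 8 had an unadjusted p below 0.05, compared with 34.8%. No Pax probe had all HOM father arrays above all HET father arrays, which held for 14.1% of tested probes, or all below, which held for 13%. The fitted difference was above 0 for 2 Pax probes and below 0 for 6, with a median of -0.11, and the median of all tested probes was -0.02. The 95% intervals of the 8 differences reached from -0.78 to 0.95 on the log2 scale and thus ended short of a 2-fold change in either direction. In whole embryos, fewer cells of a type and less RNA per cell cannot be told apart.

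*Pax1*, the sclerotome and pharyngeal pouch gene, had the widest spread among embryos of HOM fathers of the 8 tested Pax probes. Its probe (A_51_P145322, 10 spots per array) read -1.32, -2.59, -1.48 and -1.37 in HOM father replicates 1 to 4 and -1.70, -1.95, -1.60 and -1.70 in HET father replicates 1 to 4. HOM father replicate 2 was the lowest of all embryos, while the other 3 HOM father embryos were above every HET father embryo. The group means were -1.69 ± 0.60 and -1.74 ± 0.15 (SD, n = 4), a difference of 0.05 with a 95% interval from -0.59 to 0.68 (limma adjusted p = 0.926). The spots of this probe agreed closely within an array, with a median SD of 0.0893, and in HOM father replicate 2 they lay between -2.75 and -2.43, below every spot of the other 7 arrays. Without that embryo, *Pax1* was higher by 0.35 with HOM fathers (95% interval 0.13 to 0.57, limma adjusted p = 0.0410), in a fit in which 20.8% of all tested probes passed. As the embryo left out was the one HOM father value under the HET father group, its removal fixed this direction. The difference was -0.0747, -0.023 and -0.0579 without HOM father replicates 1, 3 and 4 in turn.

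*Pax9*, the partner of *Pax1* in the sclerotome and pharynx, did not share this pattern. The probe A_55_P2117908 read -2.68, -2.50, -2.62 and -3.07 in HOM father replicates 1 to 4 and -2.76, -2.38, -1.87 and -2.81 in HET father replicates 1 to 4. The groups overlapped, the highest embryo was HET father replicate 3 and HOM father replicate 2 was the third highest. The difference was -0.26 (95% interval -0.78 to 0.26, limma adjusted p = 0.451).

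Among the midbrain-hindbrain and intermediate mesoderm members, *Pax2* and *Pax8* moved in opposite directions in HOM father replicate 2. *Pax2* (A_55_P2075127), a dim probe, read -4.83, -3.61, -4.52 and -4.38 in HOM father replicates 1 to 4 and -4.98, -4.78, -4.63 and -4.28 in HET father replicates 1 to 4. HOM father replicate 2 was thus the highest embryo, with the groups otherwise mixed. Its difference of 0.34 had a 95% interval of -0.28 to 0.95 (limma adjusted p = 0.407), and fell to 0.10 without that embryo. The untested probe A_55_P2148518 was also highest in HOM father replicate 2, at -4.74 compared with between -7.86 and -6.58 elsewhere, although it was well above background on 0 of 8 arrays. *Pax8* (A_55_P2039532) read -1.75, -2.30, -1.67 and -1.90 in HOM father replicates and -1.73, -1.76, -1.91 and -1.66 in HET father replicates, with HOM father replicate 2 lowest. The difference of -0.14 had an interval of -0.46 to 0.18 (limma adjusted p = 0.506).

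*Pax3*, which acts in neural crest and in muscle precursors, was measured by 2 probes that gave a similar order of embryos. The probe A_55_P2033705 read 1.93, 1.46, 1.78 and 1.93 in HOM father replicates 1 to 4 and 1.82, 1.81, 1.73 and 1.86 in HET father replicates 1 to 4. The probe A_51_P315734, with 10 spots, read -0.28, -0.71, -0.42 and -0.25 compared with -0.28, -0.38, -0.48 and -0.18. On both probes HOM father replicate 2 was lowest. The other 7 embryos lay between 1.73 and 1.93 on A_55_P2033705 and between -0.48 and -0.18 on A_51_P315734. Across the 8 embryos the probes correlated at r = 0.93 (exact permutation p = 0.00223, 1 relation tested) and Spearman's rho = 0.83 (exact permutation p = 0.0154). Without the 2 embryos farthest from the median, HOM father replicate 2 and HET father replicate 3, r was 0.65, so that the relation rests largely on those embryos. The differences by father were -0.03 and -0.09 (limma adjusted p of 0.856 and 0.640), and both turned above 0, to 0.0714 and 0.0121, without HOM father replicate 2.

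*Pax7*, the close relative of *Pax3* (A_51_P295131), read -2.47, -2.87, -2.37 and -2.41 in HOM father replicates 1 to 4 and -2.50, -2.29, -2.51 and -2.26 in HET father replicates 1 to 4. Again HOM father replicate 2 was the lowest embryo, and the groups overlapped. The difference by father was -0.14 (95% interval -0.42 to 0.15, limma adjusted p = 0.471).

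*Pax6*, the regulator of eye and forebrain, had 1 tested probe (A_55_P2022946, 2 spots), which read -1.05, -1.81, -1.09 and -1.26 in HOM father replicates 1 to 4. In HET father replicates 1 to 4 it read -0.995, -1.03, -1.13 and -1.23. The 7 embryos other than HOM father replicate 2 lay between -1.26 and -0.995, and that embryo lay below all of them. The difference by father was -0.21 (95% interval -0.59 to 0.18, limma adjusted p = 0.416) and -0.04 without it.

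**Figure D2:**
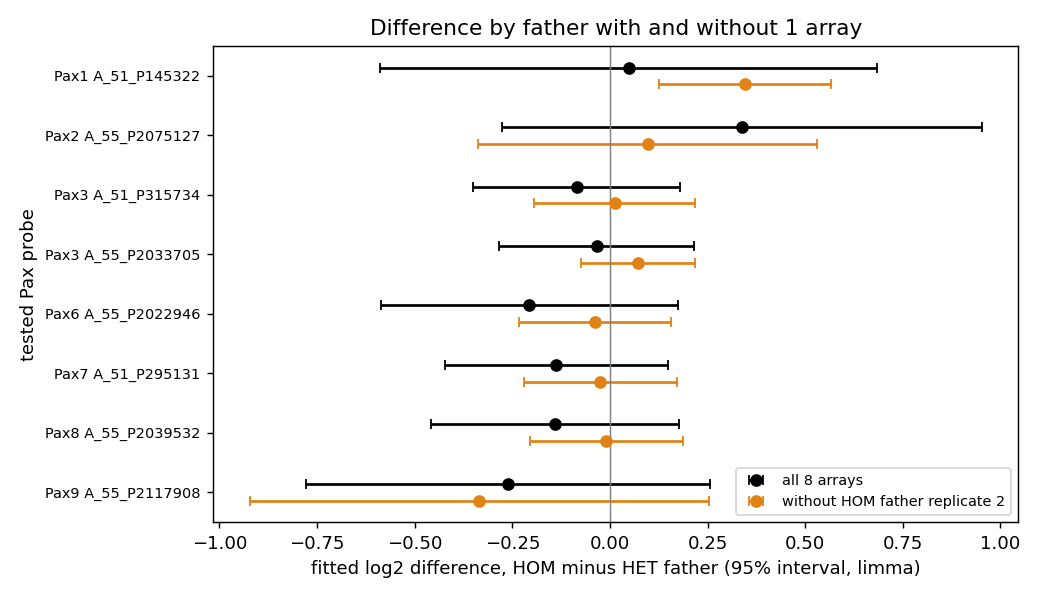
Fitted log2 difference (HOM minus HET father, horizontal axis) with its 95% interval for each tested Pax probe, from all 8 arrays (black) and without HOM father replicate 2 (orange). All 8 intervals from the full set cross 0, and without that array only the interval of *Pax1* lies above it (0.13 to 0.57).

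The extreme value of 7 of the 8 tested Pax probes was thus in 1 embryo. HOM father replicate 2, a female, was the lowest of the 8 embryos for 6 of 8 tested Pax probes (*Pax1*, both of *Pax3*, *Pax6*, *Pax7* and *Pax8*) and the highest for *Pax2*. Over all tested probes it was lowest for 16.1% and highest for 15.8%. Relative to the mean of the other 7 embryos it was 2.00-fold lower for *Pax1*, 1.62-fold for *Pax6*, 1.45-fold for *Pax8*, 1.38-fold for *Pax7* and 1.30-fold for both probes of *Pax3*, and 2.03-fold higher for *Pax2*. This embryo was singled out after its values were seen, and its order is a description with no test. Without it, the median father difference of the 8 Pax probes was 0.0014, compared with -0.02 for all probes.

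**Figure D3:**
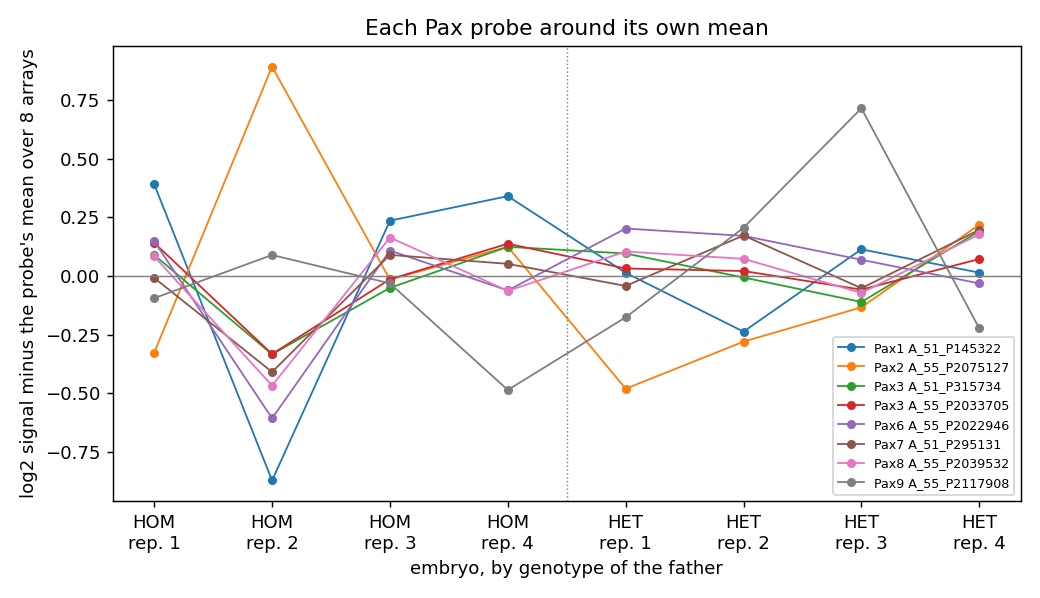
Log2 signal of each tested Pax probe minus that probe's mean over the 8 arrays (vertical axis), by embryo (horizontal axis, 4 of HOM fathers to the left of the dotted line and 4 of HET fathers to the right). In HOM father replicate 2, *Pax1*, *Pax3*, *Pax6*, *Pax7* and *Pax8* dip together, *Pax2* rises and *Pax9* stays near 0.

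The genes that share territories with the Pax family were read from 10 lists, with 79 tested genes. HOM father replicate 2 was the lowest embryo for 31 of these 79 genes (39.2%) and the highest for 8 (10.1%). It was lowest for 7 of 11 genes of the eye, forebrain and ventral neural tube, 6 of 11 Eya, Dach and sine oculis homologue genes, 3 of 5 dermomyotome and muscle genes, 5 of 12 genes of intermediate mesoderm and otic placode and 4 of 12 of dorsal neural tube and neural crest. In the other lists it was lowest for 2 of 10 genes of the midbrain-hindbrain boundary, 2 of 9 of the endocrine pancreas, 2 of 5 of B lymphocytes and 0 of 2 of the thyroid, and of 9 sclerotome and pharyngeal genes it was lowest for 3 and highest for 3. The neural crest factor *Sox10* was at 0.30 in this embryo and between 0.99 and 1.42 in the others, and the dorsal neural tube factor *Zic1* at -0.15 compared with between 0.46 and 1.26. In the other direction, *Lhx1*, an intermediate mesoderm gene as is *Pax2*, was at -2.004 compared with between -2.99 and -2.34. These 3 genes were chosen after their values were seen.

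On the array of this embryo 54.4% of spots were well above background, within the range of 51.9% to 60.8% for the 8 arrays, and 246 spots carried an outlier flag, the most of any array (123 to 246). Of the lists of other cells a whole embryo sample can hold, it was the lowest embryo for 2 of 10 yolk sac and visceral endoderm genes, 1 of 8 primitive erythroid genes and 0 of 8 trophoblast and decidua genes. In these lists HOM father replicate 3 was the lowest embryo for 6 of 10, 7 of 8 and 1 of 8 genes. The summed linear signal of the 8 trophoblast and decidua genes ranged from 24.6 to 48.9 in embryos of HOM fathers and from 34.3 to 41.7 in those of HET fathers, in units of the array's 75th percentile. It was highest in HOM father replicate 2, at 48.9, and next in HOM father replicate 3, at 48.1, which was lowest for none of the Pax probes. The sum adds genes that differed by father in opposite directions (1.28 for *Prl3b1* and -1.07 for *Gcm1*). It is therefore not a measure of the amount of this tissue. *Prl8a2*, a decidual prolactin, varied between -3.99 and 4.45 on the log2 scale among embryos and was at 4.14 in HOM father replicate 2. The part of these tissues in the Pax values was not tested.

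**Figure D4:**
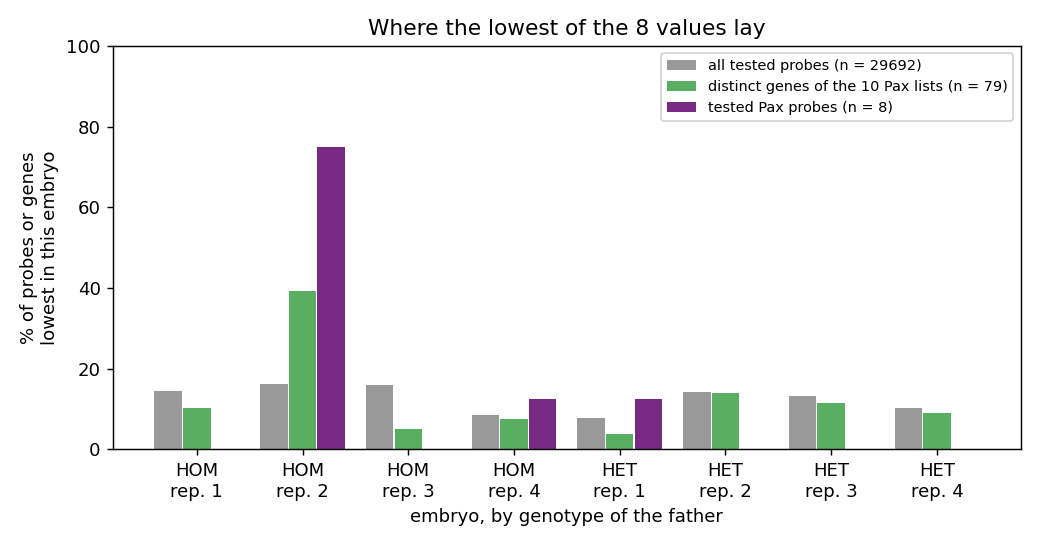
Percentage (vertical axis) of tested Pax probes (purple, n = 8), of tested genes in the 10 Pax lists (green, n = 79) and of all tested probes (grey, n = 29692 with a value on every array) for which each embryo held the lowest of the 8 values. HOM father replicate 2 stands at 75%, 39.2% and 16.1%.

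The genes most like each member across the 8 embryos were named by the highest Pearson r among 19012 named probes, with no test. They were *Meox2*, a somite homeobox gene, for *Pax1* (r = 0.99), *Rras2* for *Pax2* (0.99), *Pde10a* for *Pax3* (0.97), *Tenm2* for *Pax6* (0.98), *Zbed3* for *Pax7* (0.98), *Rspo2*, a Wnt agonist, for *Pax8* (0.98) and *Fam3a* for *Pax9* (0.97). *Meox2* read -1.67 in HOM father replicate 2 and between -1.13 and -0.68 in the other embryos. Over the 7 other embryos r was between 0.87 and 0.97 for these pairs, and 0.97 for *Pax1* and *Meox2*. Each pair was picked as the highest of 19012 values, and the 7 embryos were part of that choice. A high r was thus given by the choice, with or without HOM father replicate 2.

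Genes listed for the Pax territories differed by father in few cases. In a whole embryo, the signal of a listed gene need not come from that territory. Of the 79 tested genes in the 10 lists, 3 were higher and 4 lower with HOM fathers (limma adjusted p below 0.05), while 7.02% of all 14592 genes with a tested probe were higher and 10.6% lower. *Uncx*, a homeobox gene of the posterior sclerotome, was 0.63 higher (limma adjusted p = 0.00377), with all HOM father embryos between -2.93 and -2.58 and all HET father embryos between -3.50 and -3.22. *Fgf17*, a ligand of the midbrain-hindbrain boundary, read lower with HOM fathers, with a difference of -1.01 (limma adjusted p = 0.0165). The 3 of the 8 arrays that did not have it well above background were all of HOM fathers. Their signals are upper limits, and *Fgf17* passed the filter through the HET father arrays, so this size and p-value are not those of a measured drop. The differences were 0.48 for *Lmx1b*, of the same boundary, 0.55 for *Ins2* (insulin) and -0.26 for *Msx1*, of the dorsal neural tube (limma adjusted p of 0.0408, 0.0123 and 0.0415). No Eya, Dach or sine oculis homologue gene, whose products act with Pax proteins, was past the threshold (0 of 11 by limma, median -0.14). The muscle regulators *Myf5*, *Myf6*, *Myod1* and *Myog* were well above background on 0 arrays.

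Of the 26 tested genes of other cells, 1 was higher and 3 were lower, compared with 7.02% and 10.6% of all genes with a tested probe. The trophoblast lactogen *Prl3b1* was 1.28 higher (limma adjusted p = 0.000415) and the only list gene that passed the limits of the study's methods. The differences were -1.07 for *Gcm1*, of the labyrinth trophoblast, and -0.41 for the yolk sac *Apoa1* (limma adjusted p of 0.0217 and 0.0139). The calls of *Lmx1b* and *Msx1* were lost under 12 of 19 alternatives each, that of *Gcm1* under 6, *Apoa1* under 2 and *Ins2* under 1, and that of *Fgf17* under 2 of 18, while *Uncx* and *Prl3b1* kept theirs under all 19. Under normexp background correction the difference of *Fgf17* was -0.48 and that of *Uncx* 0.36, and under median scaling those of *Lmx1b* and *Ins2* were 0.29 and 0.36.

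Female and male embryos were compared in a limma fit with father as a covariate, separate from the fit by father alone. No Pax probe was past the threshold by sex (0 of 8 at a limma adjusted p below 0.05, compared with 0.121% of all tested probes, and 1 of 8 at an unadjusted p below 0.05, compared with 5.22%). The exception without adjustment was *Pax7*, at -2.47, -2.87, -2.50 and -2.51 in females and -2.37, -2.41, -2.29 and -2.26 in males. Every female was below every male, which held for 0.942% of all tested probes. The difference was -0.26 (limma adjusted p = 0.914), and -0.17 without HOM father replicate 2 (limma adjusted p = 0.999). The interaction of father and sex was past the threshold for 0 of 8 Pax probes and for 0.0639% of all tested probes.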

How the data were processed

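RNA of 8 E8.5 embryos was treated with DNase, and 0.2 µg of each was amplified to Cy3-labelled cRNA and hybridised to 1 array. The authors extracted the deposited processed intensity of each spot with Agilent Feature Extraction 11.0.1.1, which subtracts background and removes spatial trends, and no normalisation between arrays was applied. The authors' series table held the same intensities within 0.497%. The deposited scanner flags, other values of 0 or 1, served as filters. The number of arrays limits the precision.

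Spots flagged as outliers were removed (4 spot values of Pax probes), no spot was saturated, log2 intensities were shifted by the 75th percentile of each array, and spots of 1 probe were averaged. Accessions were matched to RefSeq symbols (27235 probes). Groups and sex came from the labels. Differences were fitted with limma 3.58.1 (lmFit, eBayes, two-sided) in R 4.3.3 over 29718 probes with Benjamini-Hochberg adjustment. Where a gene in a list had several tested probes, the one with the highest mean was used. Named genes were all 9 members, up to 3 genes per list past the threshold with the largest difference, and 1 most similar gene per member. The values of some genes that this rule names are not reported here. The members and gene lists were chosen with earlier results of these data known. Alternatives covered background correction (normexp with offset 50, on the median spot signal because no mean signal column was in the files), scaling, filters, variance model, the authors' table, sex, blocks and leaving out each array. On data simulated for the father comparison, 78% of log2 changes of 1 were recovered at an adjusted p below 0.05, and 38% of changes of 0.5. The simulation changed 50 of 29692 probes at each size and drew every value independently. In the data 21% of tested probes passed and some embryos had a common father. These rates therefore do not give the power for the Pax probes.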

Additional observations from a re-analysis of the deposited data

Results flagged for a closer look

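The tested Pax probes were examined in 15 groups of 4 arrays with signal well above background, by the size of the gap between the outermost array and the next one (Dixon's ratio at the 95% level). The gap was large in 1 group, where 0.75 groups would be by chance at about 1 in 20. It was that of *Pax1* in HOM father replicate 2, at -2.59, where the remaining embryos of HOM fathers read between -1.48 and -1.32. All spots of the probe on that array lay below those on the other arrays.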

How the results depend on the processing

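The count of Pax probes called by father at the limits of the study's methods was 0 under every alternative run. The count past an adjusted p of 0.05 was 0 except under median scaling, with 1 (*Pax7*, -0.33) where 42.7% of all tested probes passed, and between 0 and 1 over the fits that left out each array, with 1 (*Pax1*, 0.35) without HOM father replicate 2, where 20.8% passed. Median scaling moved all tested probes to a median of -0.21, and the Pax median to -0.30, or -0.09 relative to that shift. Over the leave-one-out fits the Pax median lay between -0.14 and 0.0014. The sign of *Pax1* turned under quantile normalisation (-0.0196), median scaling (-0.14) and over the leave-one-out fits, which ranged from -0.0747 to 0.35. *Pax3* reached 0.001 (A_55_P2033705) under normexp, and over the leave-one-out fits it ranged from -0.0868 to 0.0714 for that probe and from -0.14 to 0.0121 for A_51_P315734. The other 5 tested Pax probes kept their direction under every alternative run. List genes past the threshold numbered 11, but 35 under median scaling, 3 with no filter on dim probes and between 7 and 15 over the leave-one-out fits (7 without HET father replicate 2 and 7 without HET father replicate 3). With the replicate number as a block 0 Pax probes and 6 list genes passed. With the leading number of the sample identifier, which some embryos of a group share, as a random block (consensus correlation 0.302), 0 Pax probes and 8 list genes passed, and *Lmx1b* and *Msx1* did not (limma adjusted p of 0.0829 and 0.0648). Deviations of arrays with the same replicate number correlated at between -0.13 and 0.19. These values cannot decide whether the numbers pair the embryos, as the sire of each embryo is not in the labels used. The cause of these changes was not tested. Signals near background limit *Pax2*, *Pax4* and *Pax5*.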
